A study of Mus musculus with 18 samples.

Results

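Ribosomal protein genes encode the proteins of the small (Rps) and large (Rpl) subunits of the cytoplasmic ribosome. The members described here were the RefSeq protein-coding genes of mouse whose symbols begin with Rpl or Rps and a digit, together with Rplp0, Rplp1, Rplp2 and Rpsa, without the Rps6k kinases and 2 further genes that are not reported here. The rule gave 89 of the 21900 protein-coding genes with coordinates on GRCm38.p6 (mm10), and used no measured value. The data were miR-eCLIP libraries from total thymocytes of mice aged 6 weeks, in which cells are crosslinked with UV light at 254 nm, Argonaute-bound RNA is recovered, and a miRNA ligated to the RNA beside it gives a chimeric read that names the miRNA and the position. Wild-type mice were C57BL/6, and knockout mice (B6.Mirc14tm1.1Ankr) lacked the miR-181a-1/b-1 cluster but kept the other loci that encode miR-181 family members. Each genotype had 3 libraries of the Ago2 immunoprecipitate (Ago2 IP) and 3 in which miR-181 chimeras were further enriched from it. Input libraries were not analysed here. The labels number the libraries without saying that each came from its own mouse, so the spread between libraries may be technical.

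Argonaute carries a miRNA to RNAs that pair with its seed, the bases at positions 2 to 8, and the usual sites lie in the 3' untranslated region of an mRNA. Ribosomal protein mRNAs are short, abundant and heavily translated, and the introns of many of these genes hold small nucleolar RNAs (snoRNAs), which guide chemical modification of ribosomal RNA after they are cut from the intron. miR-181a is abundant in immature thymocytes, where it is known for tuning T cell receptor signalling, and miR-142a-3p is characteristic of blood cells. A chimeric read counts contacts: more RNA of a gene and more miRNA per RNA molecule cannot be told apart here, and fewer cells of a type and less RNA per cell cannot be told apart either.

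The 4 miR-181-5p members share 1 seed, and the other miRNAs that the results turn on have seeds of their own. The mature sequences below are from RefSeq (GRCm38.p6), 5′ to 3′, with the seed in capitals, and are shown because the reads are sorted by them.
miR-181a-5p: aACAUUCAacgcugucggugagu
miR-181b-5p: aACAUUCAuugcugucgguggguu
miR-181c-5p: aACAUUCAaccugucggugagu
miR-181d-5p: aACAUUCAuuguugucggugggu
miR-142a-3p: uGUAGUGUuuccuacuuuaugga
miR-26a-5p: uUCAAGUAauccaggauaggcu
miR-16-5p: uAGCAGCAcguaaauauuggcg
Over the positions that both have, counted from 1 at the 5′ end, miR-181b-5p differed from miR-181a-5p by A9U, C10U and A21G, and miR-181d-5p differed from miR-181b-5p by C12U.

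The libraries held between 43983 and 117849 chimeric reads in wild-type Ago2 IP libraries, 52100 to 67639 in knockout Ago2 IP libraries, 194628 to 293149 in the wild-type enriched and only 6832 to 19264 in the knockout enriched group. Counts of 0 in the last group therefore allow between 156 and 439 reads per 1000000 chimeric reads (rpm; 3 reads of the library). These bounds and all intervals below cover counting error only. All 16 thymocyte marker genes had reads, and together they took 1.93% to 2.32% of every library. Of the markers of other thymic cells, 6 B cell genes had 24 reads in all, 6 myeloid genes 39 with Cd68 at 0, and 6 erythroid genes 40. Of 8 epithelial and stromal genes only Epcam had a read, 1, and Foxn1, Psmb11, Krt5, Krt8, Col1a1, Col1a2 and Pdgfra were at 0.

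Ribosomal protein genes took few of the chimeric reads in thymocytes, in every group. Of the 89 genes, 82 had at least 1 read and they held 3095 reads in all: 541 in wild-type Ago2 IP libraries, 561 in knockout Ago2 IP libraries, 1859 in the wild-type enriched and 134 in the knockout enriched libraries. The 7 without a read assigned to them were Rps23rg1, Rps27rt, Rpl32l, Rpl10l, Rpl39l, Rpl31-ps12 and Rpl36. Their share of all chimeric reads was 0.255%, 0.207% and 0.221% in wild-type Ago2 IP libraries, a mean of 0.228% ± 0.025 (SD, n = 3). In knockout Ago2 IP libraries it was 0.339%, 0.302% and 0.290%, a mean of 0.310% ± 0.026 (SD, n = 3). Every knockout Ago2 IP library lay above every wild-type one. The share in the wild-type enriched libraries was 0.249% ± 0.017 (SD, n = 3), and in the knockout enriched libraries it was 0.317% ± 0.101 (SD, n = 3), from 0.220% to 0.420%, so that these 2 groups overlapped. These shares are descriptions of a chosen list and were not tested.

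**Figure D1:**
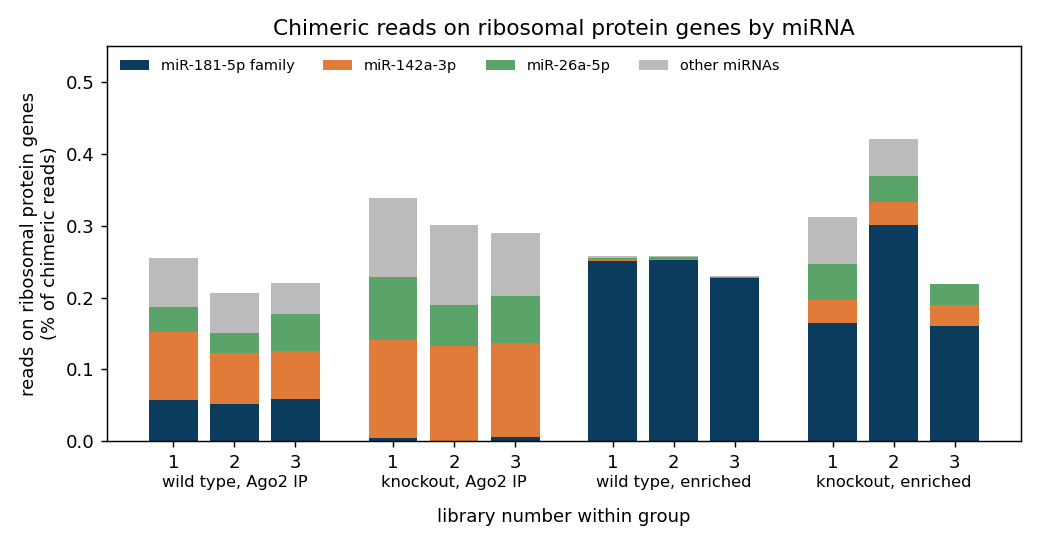
Stacked bars give reads on the 89 ribosomal protein genes as a percentage of all chimeric reads in each of the 12 libraries, split by the miRNA named in the read. The 3 knockout Ago2 IP libraries (0.290% to 0.339%) stand above the 3 wild-type ones (0.207% to 0.255%), and the miR-181 part is nearly gone from them.

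Reads were spread unevenly over the genes. The median member had 15 reads over all libraries, 29 had fewer than 10, and 14 had 50 or more. Rps12 alone held 14.4% of all reads on ribosomal protein genes, the leading 6 genes 46.7%, and the leading 12 held 61.1%. Scaled to gene span, Rps12 had 203 reads per kb, Rpl37 110 and Rpl13 57.0, where the span counts introns as well as exons. Per kb of span in wild-type Ago2 IP libraries, the median ribosomal protein gene had 0.857 reads, against 5.92 for the 16 thymocyte markers, 0.903 for 11 ribosome-associated genes outside the rule, 0.761 for 37 translation factors, 0.381 for 30 ribosome biogenesis genes and 0.225 for 78 mitochondrial ribosomal protein genes, and 0 for all protein-coding genes.

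The mean make-up of miRNAs on ribosomal protein genes differed from that on other genes, a description with no test. In wild-type Ago2 IP libraries, miR-142a-3p made up 33.8% ± 3.7 (SD, n = 3) of reads on ribosomal protein genes against 27.5% ± 0.7 on other protein-coding genes. The miR-181-5p family made up 24.7% ± 2.3 against 31.0% ± 0.9. Without the leading Rps12 site, left out after seeing the data, it made up 24.7%, 28.5% and 35.6%. That is a mean of 29.6% ± 5.5 (SD, n = 3), a spread that takes in the 31.0%. The let-7 family, at 2.84% against 11.7%, and the miR-17 family (miR-17, miR-20, miR-93 and their relatives of the same seed), at 4.34% against 10.4%, were lower on ribosomal protein genes in all 3 libraries. miR-26a-5p went the other way, with 13.6%, 13.3% and 23.7% of reads on ribosomal protein genes against 1.15% ± 0.03 on other genes. Most of these reads were at 1 place: 91.6% of the miR-26a-5p reads on ribosomal protein genes in wild-type Ago2 IP libraries were on Rps12, and without the leading Rps12 site described next miR-26a-5p made up 1.22% ± 1.15 (SD, n = 3).

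**Figure D2:**
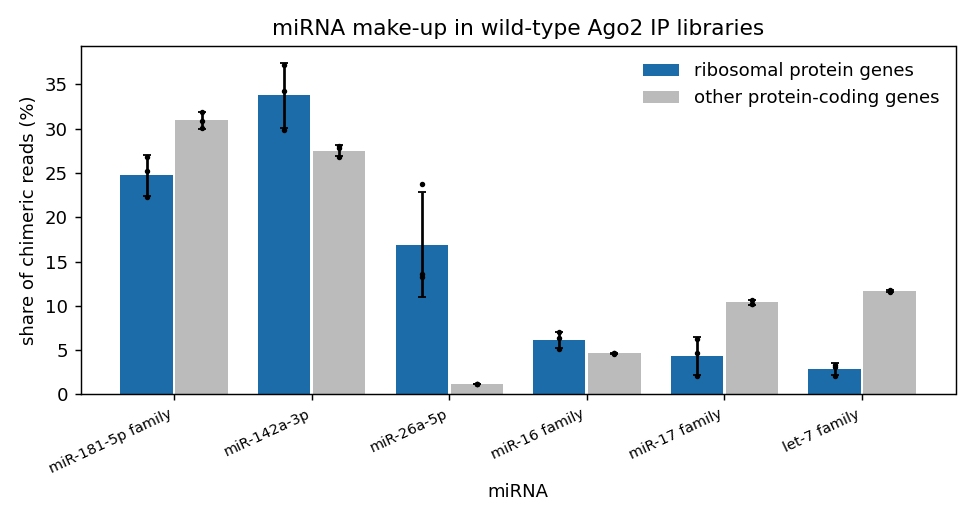
Bars give the mean share of reads (%) by miRNA in the 3 wild-type Ago2 IP libraries, on ribosomal protein genes (blue) and on other protein-coding genes (grey), with error bars of 1 SD and a point for each library. miR-26a-5p stands at 16.9% on ribosomal protein genes against 1.15% elsewhere, and let-7 and the miR-17 family are lower on ribosomal protein genes.

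In knockout Ago2 IP libraries the family encoded in part by the deleted cluster was almost absent. miR-181-5p made up 1.46%, 0% and 1.99% of reads on ribosomal protein genes (6 reads in all), against 1.39% ± 0.06 (SD, n = 3) on other protein-coding genes. miR-142a-3p then made up 43.1% ± 2.5 and miR-26a-5p 22.3%, against 39.3% and 1.71% on other protein-coding genes. Enrichment turned the make-up around: miR-181-5p reached 97.8% ± 0.8 (SD, n = 3) in the wild-type enriched libraries, against 98.9% ± 0.2 on other protein-coding genes. In the knockout enriched libraries it was 52.6%, 71.6% and 73.3%, against 71.9% ± 0.7 on other genes, and the library with 52.6% was the lowest. Shares within a library sum to a fixed total, so they do not move independently.

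Rps12, a small-subunit protein gene on the minus strand of chromosome 10, had the most reads over all libraries together, while in the wild-type Ago2 IP group Rpl37 had 97 and Rps12 92. Its reads stood at 44, 23 and 25 in wild-type Ago2 IP libraries, 52, 38 and 36 in knockout Ago2 IP libraries, 75, 76 and 54 in the wild-type enriched and 7, 14 and 2 in the knockout enriched libraries. This was 425 rpm ± 126 (SD, n = 3) in wild-type Ago2 IP libraries and 703 ± 147 in the knockout, with the highest wild-type library, 568, above the lowest knockout one, 562. Of its 446 reads, 377 fell within chr10:23786474-23786509, 36 nt that lie wholly inside an annotated snoRNA span (LOC115487513, chr10:23786470-23786543). The reference used gives no strand for small RNAs, so each is assumed here to lie on its host's strand. RefSeq exons were not used here, so each position is placed in the gene span and in small RNAs only.

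At that snoRNA site miR-26a-5p and miR-181-5p had the same most frequent position. miR-26a-5p gave 220 of the 377 reads and miR-181-5p 151. It was chr10:23786478, with 156 of the miR-26a-5p reads and 80 of the miR-181-5p reads. miR-26a-5p gave 35, 19 and 22 reads there in wild-type Ago2 IP libraries, with 50, 31 and 33 in the knockout ones, and miR-181-5p gave 2, 1 and 0 and then none. In the wild-type enriched libraries the order was reversed, with 6, 7 and 2 miR-26a-5p reads against 50, 51 and 42 miR-181-5p reads. In the knockout enriched libraries miR-26a-5p again had more, with 6, 7 and 2 reads against 1, 4 and 0. Among 5173 places where miR-26a-5p reads gathered anywhere in the data, this one ranked 1st, and the next had 37 reads. It held 3.05% ± 1.09 (SD, n = 3) of all miR-26a-5p reads in wild-type Ago2 IP libraries and 3.61% ± 0.71 in the knockout, ranges that overlapped. Of the reads at the site, 69.2% repeated the position, strand and miRNA of another read of the same library.

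**Figure D3:**
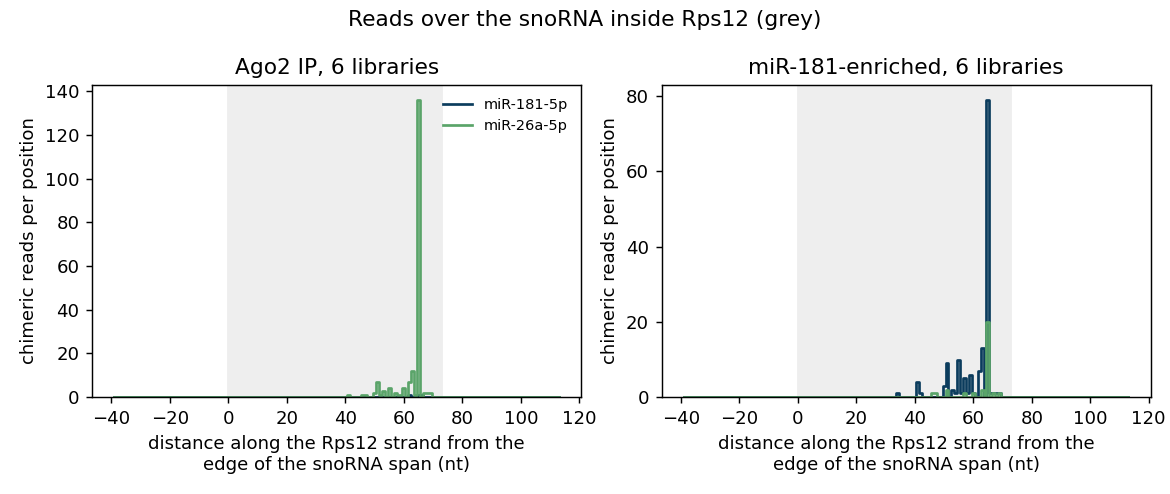
Lines give chimeric reads per position over the snoRNA span inside Rps12 (grey), summed over both genotypes in the 6 Ago2 IP libraries (left) and the 6 miR-181-enriched libraries (right), against distance along the Rps12 strand from the edge of the span in nt. miR-26a-5p leads in the Ago2 IP sum and miR-181-5p in the enriched sum, most of which is wild-type, and both peak at the same position.

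Small RNAs held 23.8% of the reads on ribosomal protein genes. Annotated small RNA spans lay within 29 of the 89 genes, 57 spans in all, of which 31 had reads and 10 had 10 or more. They took 737 of 3095 reads, of which 377 were in the Rps12 snoRNA and 155 in Snord83b of Rpl3. The share on ribosomal protein hosts given next leans on those spans. Among genes that host such a span, 36.3% of reads on ribosomal protein hosts were inside it, against 2.63% on 1278 other protein-coding hosts, whose spans differ in length. The share on ribosomal protein hosts was 32.6% in wild-type Ago2 IP libraries, 38.1% in knockout Ago2 IP libraries, 37.4% in the wild-type enriched and 29.8% in the knockout enriched libraries. After the Rps12 site came Snord83b in Rpl3 with 155 reads, Snord100 in Rps12 with 28 and Snord14a in Rps13 with 26, and miR-181-5p gave 153, 27 and 25 of these reads. In Rpl7a the snoRNA LOC115489586 had 8 reads, 4 of them with miR-25-3p. Few reads lay at the gene ends: 6 reads (0.194%) were within 50 nt of a gene start and 80 (2.58%) within 50 nt of a gene end.

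The reads formed 618 sites when neighbours at most 20 nt apart were joined, 358 of them single reads. Of 45 sites with 10 or more reads, 32 were mostly miR-181-5p and 13 mostly another miRNA over all libraries together, a tally that the enriched libraries weigh on: they are enriched for miR-181, and the wild-type ones gave 970 of the 1167 reads at those 32 sites. Of the 32, 25 had wild-type Ago2 IP reads, and there 13 were mostly miR-181-5p and 7 had none of it. The leading 8 held 37.9% of the reads on ribosomal protein genes. Among them were the Rps12 snoRNA site, 1 site each in Rps15a, Rpl3, Rpl13 and Rps27l, and 2 in Rpl37.

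Rpl37 and Rps27l had the most miR-142a-3p reads. Rpl37, a large-subunit protein gene on chromosome 15, had 60, 26 and 11 reads in wild-type Ago2 IP libraries, with 27, 26 and 26 in the knockout ones. Of the 97 wild-type reads 70 named miR-142a-3p, which was 36.8% of that miRNA's 190 reads on ribosomal protein genes, and 17 named miR-181-5p. Its leading sites were chr15:5117314-5117419, with 90 of 139 reads from miR-142a-3p and 43 from miR-181-5p, and chr15:5117616-5117696, with 42 of 80 from miR-142a-3p. A further site at chr15:5118560-5118588 had 30 reads, 16 of miR-181-5p and 8 of miR-16-5p. Rpl37rt, a gene whose symbol marks it as a copy of Rpl37, had 21 reads, and reads that fit both copies could be placed on either.

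Rps27l, a paralogue of the small-subunit gene Rps27 known as a p53 target, had 20, 2 and 5 reads in wild-type Ago2 IP libraries, against 15, 14 and 8 for knockout ones. miR-142a-3p gave 24 of the 27 wild-type and all 37 knockout reads. The wild-type site counts were 16, 2 and 5 and the knockout ones 11, 14 and 7, at chr9:66949326-66949390, whose median read position is 189 nt before the gene's annotated end and where 54 of 58 reads named miR-142a-3p. In the wild-type enriched libraries Rps27l had only 5, 5 and 2 reads, and in the knockout enriched libraries it had none. Rpl30, of the large subunit, was the third gene for miR-142a-3p in wild-type Ago2 IP libraries with 10 reads.

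On 3 further genes nearly all wild-type enriched reads named miR-181-5p, as enrichment selects for it; in wild-type Ago2 IP libraries it gave 13 of 14 reads on Rps15a, 10 of 12 on Rpl3 and 4 of 6 on Rpl13. Rps15a, of the small subunit, had 10, 1 and 3 reads in wild-type Ago2 IP libraries, 1, 2 and 0 in the knockout, 70, 59 and 45 in the wild-type enriched, and 0, 1 and 0 in the knockout enriched libraries. All 174 wild-type enriched reads named miR-181-5p, and 147 lay at chr7:118115114-118115202, outside any annotated small RNA. Rpl3, whose protein lies close to the catalytic centre of the ribosome, had 84, 57 and 31 wild-type enriched reads and 0, 4 and 0 knockout enriched reads. Its site chr15:80078500-80078560, with 157 reads, overlapped Snord83b (chr15:80078503-80078579). Rpl13, of the large subunit, had 65, 47 and 37 wild-type enriched and 1, 4 and 0 knockout enriched reads, and its site chr8:123103028-123103058, with 131 reads, ended at the first base of Snord68. At the Rpl13 site 70.2% of the reads were repeats of another, at the Rpl3 site 55.4% and at the Rps15a site 46.2%.

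**Figure D4:**
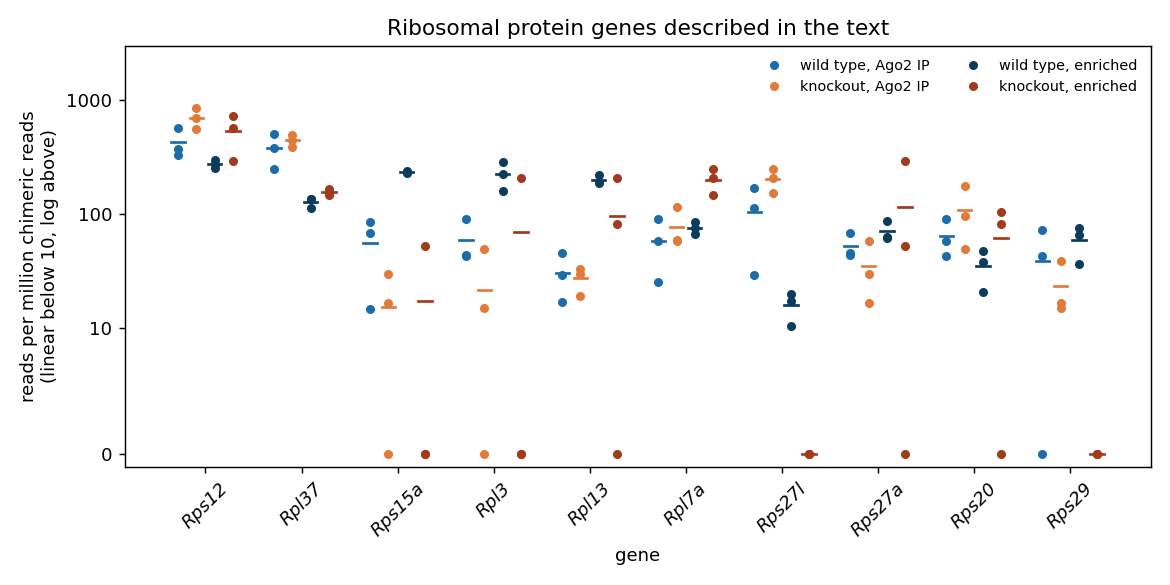
Points give rpm in each library for 10 ribosomal protein genes described in the text, coloured by group, with a bar at the mean of 3 libraries, on an axis that is linear below 10 and logarithmic above. Rps12 and Rpl37 lead in the Ago2 IP, and Rps15a, Rpl3 and Rpl13 are higher in the wild-type enriched libraries (means of 199 to 234) than in wild-type Ago2 IP libraries (30.5 to 58.9).

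Over the 3 wild-type enriched libraries together, miR-181a-5p gave 75.3% and miR-181b-5p 22.7% of the 1815 miR-181-5p reads on all ribosomal protein genes, against 81.4% and 17.4% on other protein-coding genes. Single genes lay on both sides of these shares. miR-181a-5p gave 92.4% of the miR-181-5p reads on Rpl3, 88.5% on Rps15a, 87.8% on Rps12, 84.6% on Rpl37 and 83.1% on Rpl13. On Rps27a it gave 66.7% of 51 reads, and miR-181b-5p gave 31.4%. These pooled shares were not tested.

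Smaller counts were seen on the paralogues and the genes that are not ribosome subunits. Rpl7l1 had 36 reads, of which 25 were at chr17:46774690-46774703, all miR-181-5p and all in the wild-type enriched libraries (15, 5 and 5). Rps19bp1, which encodes a binding partner of the Rps19 protein, had 6 reads, Rpl22l1 had 3, Rpl3l had 2, Rpl36al had 1, and Rpl10l and Rpl39l had none. Of the other genes with at least 40 reads, Rps27a, which encodes a fusion of ubiquitin with a small-subunit protein, had 18, 16 and 17 reads in the wild-type enriched libraries, all of miR-181-5p. Rps29 had 19, 19 and 7 there, again all of miR-181-5p, and 0 in every knockout enriched library. At 58.6 rpm its wild-type enriched level was under what a count of 0 allows in those libraries, so its loss was not detectable at this depth. Rps20 had 5, 4 and 4 reads in the wild-type and 3, 12 and 5 in knockout Ago2 IP libraries, with 15 of the 20 knockout reads from miR-142a-3p. Rpl7a had 25, 19 and 13 wild-type enriched reads against 3, 4 and 1 knockout enriched ones. Rps26, of the small subunit, had 13 wild-type Ago2 IP reads, and 12 of them were in library 1.

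Other miRNA families gave only a few reads a gene in wild-type Ago2 IP libraries. For the miR-16 family (miR-15, miR-16 and relatives, 34 reads) Rps12 led with 7, and Rpl37 had 4. For the miR-17 family (25 reads) Rpl17 led with 5, and Rpl31 and Rpl37 had 2 each. For let-7 (16 reads) Rpl7a, Rps12 and Rps26 had 2 each.

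Whether the loss of the miR-181a-1/b-1 cluster changed the reads on a gene in the Ago2 IP was tested with edgeR's quasi-likelihood test over all genes that passed a filter on low counts, with Benjamini-Hochberg adjustment and a threshold of 0.05. Only 3 of the 89 genes passed that filter, and 1 was called; over all 1543 genes tested, 157 were called (10.2%), 47 of them higher in the knockout (3.05%) and 110 lower (7.13%). Scaled by library totals in place of TMM, 65 were higher and 93 lower. Rps12 was higher in the knockout by 0.76 on the log2 scale (SE 0.22, adjusted p = 0.0144, edgeR). Over all libraries 406 of its 446 reads (91.0%) lay in small RNA spans, and with those spans left out Rps12 did not pass the filter. The call was lost with DESeq2 (log2 0.75, adjusted p = 0.196), with no filter (adjusted p = 0.0824), with identical reads counted once (0.51, adjusted p = 0.432), with reads of other miRNAs alone (0.34, adjusted p = 0.583), and without wild-type library 1 (adjusted p = 0.125), wild-type library 2 (adjusted p = 0.127) or knockout library 1 (adjusted p = 0.127). Rps27l was at log2 0.78 (SE 0.40, adjusted p = 0.232) and Rpl37 at 0.04 (SE 0.24, adjusted p = 0.948). For none of the 3 were the groups apart in scaled counts, against 24.9% of genes tested. Beside this, the mean miR-181 share of reads on other protein-coding genes was 31.0% for wild-type and 1.39% for knockout libraries, and the part of that change in the totals was not tested beyond the value with other miRNAs alone.

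The same question in the enriched libraries could be put for 7 of the 89 genes, and 1 was called, beside 90 of 2045 genes tested (4.40%), 28 higher (1.37%) and 62 lower (3.03%). Scaled by library totals, 41 were higher and 30 lower, and the median of all genes moved from -0.18 to 0.04. Rps15a was lower in the knockout, with a fitted log2 change of -3.44 (SE 0.89, adjusted p = 0.0194, edgeR). Rps15a passed the filter through its wild-type libraries alone, so it could hardly have been called in the other direction. The change rests on 174 wild-type reads against 1 knockout read. Summed over libraries and set against the totals, the wild type was 8.99 times the knockout, with an exact interval from 1.59 to 357. The call was lost without knockout library 1 (adjusted p = 0.0997) and with identical reads counted once (adjusted p = 0.124), and Rps15a did not pass the filter in the fits without a wild-type library. Not called were Rpl3 at -1.46 (adjusted p = 0.301), Rpl13 at -0.95 (adjusted p = 0.473), Rpl7a at 1.1 (adjusted p = 0.344), Rps12 at 0.77 (adjusted p = 0.252) and Rpl37 at -0.05 (adjusted p = 0.985). In scaled counts the groups were apart for 3 of the 7 (Rps15a, Rpl13 and Rpl7a), against 28.8% of genes tested.

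Enrichment for miR-181 was tested in the wild type, where 10 of the 89 genes passed the filter and 5 were called, beside 999 of 2911 genes tested (34.3%), of which 533 were higher (18.3%) and 466 lower (16.0%). Scaled by library totals, 414 were higher and 695 lower, the median of all genes moved from -0.05 to -0.23, and the number of ribosomal protein genes called stayed at 4 up and 1 down. Rpl13 rose by log2 3.23 (SE 0.42, adjusted p = 5.9e-08, edgeR), Rpl3 by 2.45 (SE 0.37, adjusted p = 1.7e-06) and Rps15a by 2.27 (SE 0.34, adjusted p = 1.5e-06). Over all libraries 160 of the 192 Rpl3 reads (83.3%) lay in small RNA spans, and with those spans left out Rpl3 did not pass the filter. Rpl37 fell, with a log2 change of -1.33 (SE 0.24, adjusted p = 3.2e-05). Rpl7a (1.0, adjusted p = 0.0787), Rps29 (0.80, adjusted p = 0.216) and Rps27a (0.62, adjusted p = 0.264) did not pass. The median over the 10 was 0.99, against -0.05 over all genes tested, and the groups were apart for 7 of the 10, against 45.7%. Rpl13, Rpl3 and Rps15a had only 6, 12 and 14 wild-type Ago2 IP reads and passed the filter through the enriched libraries. They could hardly have been called in the other direction. Their calls, the median and the count of 7 are therefore not independent of the filter, and no conclusion is drawn from them.

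Rps12 was not called over all its reads, at log2 -0.21 (SE 0.21, adjusted p = 0.461), while the miRNAs named in them differed. Counting miR-181 chimeras alone, against the other genes in those chimeras, it rose by 2.49 (adjusted p = 0.00281). Counting the reads of other miRNAs alone, where 229 genes were tested, it also rose, by 1.80 (adjusted p = 0.0280). Rps12 had 4 reads of miR-181-5p in wild-type Ago2 IP libraries and 189 after enrichment, and 76 reads of miR-26a-5p before and 15 after. With miR-181 chimeras alone, Rpl13 kept its call (2.13, adjusted p = 0.0333), and Rpl3 (1.02, adjusted p = 0.257), Rps15a (0.69, adjusted p = 0.449) and Rpl37 (-0.62, adjusted p = 0.530) were not called. In that fit Rps12 and Rpl13, with 4 wild-type Ago2 IP reads each, also passed the filter through the enriched libraries.

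**Figure D5:**
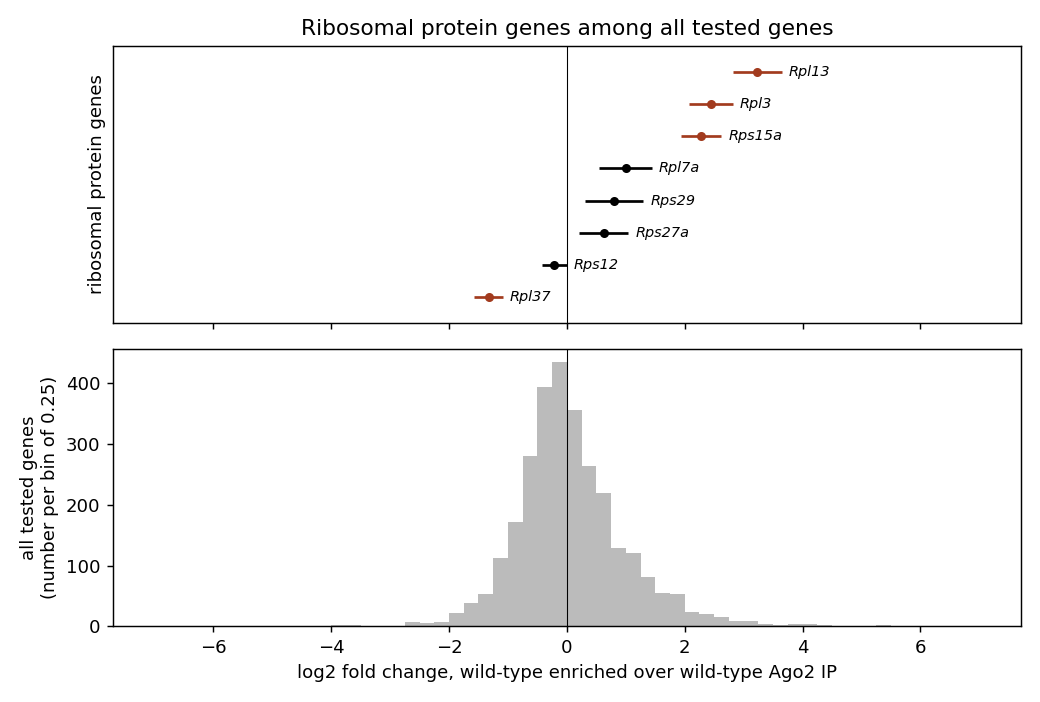
The upper panel gives the log2 fold change of the wild-type enriched over the wild-type Ago2 IP libraries for 8 of the 10 ribosomal protein genes tested, with bars of 1 SE and red for adjusted p at most 0.05 (edgeR). The lower panel gives all 2911 genes tested, in bins of 0.25, with 2 genes beyond the axis: Rpl13, Rpl3 and Rps15a lie above 2, and Rpl37 at -1.33. Rpl13, Rpl3 and Rps15a passed the filter through the enriched libraries, so they could hardly have been called lower.

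In the knockout, enrichment could be tested for only 2 of the 89 genes and neither was called with edgeR's quasi-likelihood test, beside 160 of 774 genes tested (20.7%), 118 higher (15.2%) and 42 lower (5.43%). Scaled by library totals, 98 of 204 called genes were lower and the median of all genes moved from -0.09 to -0.30. The groups were apart for 1 of the 2, against 36.3% of genes tested. Rpl37 was at log2 -1.31 (SE 0.53, unadjusted p = 0.0169, adjusted p = 0.0732, edgeR) and Rps12 at -0.07 (SE 0.34, adjusted p = 0.927), so that 1 of the 2 had an unadjusted p under 0.05; DESeq2 called none. Whether enrichment differed between the genotypes was tested as an interaction over all 12 libraries, a fit added after the data were seen. None of 7 ribosomal protein genes was called with edgeR, and 1 had an unadjusted p under 0.05; 40 of 2022 genes tested were called.

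The comparison lists of the translation machinery gave few testable genes. Of 37 translation factors 16 were tested for enrichment in the wild type, and 4 rose and 2 fell. Over all 2911 genes tested there, 18.3% rose and 16.0% fell, shares that stand beside the counts of each list. Eef1a1, the elongation factor that brings tRNA to the ribosome, rose by 1.61 (adjusted p = 6.9e-06), Eif2s1, a subunit of initiation factor eIF2, by 1.91 (adjusted p = 6.2e-05) and Eef2, the translocation factor, by 0.89 (adjusted p = 0.000686). Of 30 ribosome biogenesis genes 3 were tested and 2 rose, Nop58 by 3.42 and Nop56 by 1.77, both core proteins of box C/D snoRNA particles. Of 11 ribosome-associated genes 4 were tested and Mtor rose by 0.91, and of 78 mitochondrial ribosomal protein genes 1 was tested, Mrps9, which rose by 0.72 (adjusted p = 0.0299, edgeR). In the knockout against the wild type, Eif4g3 was lower in the Ago2 IP (-0.70, adjusted p = 0.0437) and Nop58 in the enriched libraries (-0.96, adjusted p = 0.0445), and no other gene of these 4 lists was called there. Over all genes tested, 10.2% were called in the Ago2 IP and 4.40% in the enriched libraries. In the knockout enriched against its Ago2 IP, Eef1a1 (1.48, adjusted p = 0.0247) and Nop58 (2.06, adjusted p = 6.8e-05) were higher, beside 15.2% of all genes tested. Both enrichment tests and both knockout tests share libraries in pairs, so their values are set side by side only.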

How the data were processed

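Each deposited file lists the chimeric reads of 1 library and strand as single positions with a miRNA name, and the values used were counts of those reads. The submitters' processing notes name STAR 2.7.10, Bowtie2 2.4.5, UMI-tools 1.1.1, SAMtools 1.11 and bedtools 2.30.0 with builds mm10 and GRCm38.p6, giving no order. Deposited reads were assigned here to RefSeq GRCm38.p6 protein-coding gene spans on the gene's strand; counts have no length or exon correction. The strand came from RefSeq's promoter table for 69 of the 89 genes and otherwise from the majority of reads, a rule that matched the table for 6280 of 6462 genes with at least 10 reads (97.2%). Reads in 2 spans on 1 strand were left out (3 reads, on Rps27rt). Reads in 324 ribosomal protein pseudogene spans numbered 0 to 26 a library and none was also on a ribosomal protein gene. Groups were compared with edgeR 4.0.16 in R 4.3.3 (TMM scaling, filterByExpr with a minimum count of 10, quasi-likelihood test, all genes fitted and adjusted together) and, as an alternative, DESeq2 1.42.0. The edgeR procedure was tested on simulated data. Named were the 12 genes with most wild-type Ago2 IP reads, all called genes, the 10 with most miR-181 reads in the wild-type enriched libraries, the 8 leading sites, the paralogues, the 3 leading genes of 4 miRNAs or families and the genes without reads. Some genes that these rules select are counted in totals and are not reported here by name. The members and lists were chosen with earlier results of these data known. Pairing by library number was checked by correlation, with values given below, and the main fits do not use it.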

Additional observations from a re-analysis of the deposited data

How the results depend on the processing

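The precision is limited by depth: 2 to 10 of 89 genes could be tested in a comparison. The number of ribosomal protein genes called was 1 for knockout against wild type in the Ago2 IP, and 0 with DESeq2, no filter, identical reads counted once, small-RNA spans left out or other miRNAs alone; leaving out a library gave 0 to 1. In the enriched libraries it was 1 of 7 (4.40% over all genes), 0 with DESeq2 and 0 to 2 without a library. It was 2 with library sizes alone, no filter, miR-181 chimeras alone, the replicate block or knockout libraries 2 and 3 as 1 sample. These tested 7, 80, 6, 7 and 16 (2.26% to 3.91%). DESeq2 gave no adjusted p for Rps15a, Rpl7a and Rpl37 there. For wild-type enrichment it was 5 of 10 (34.3%), against 8 of 82 with no filter (8.54%). It was 2 of 6 with miR-181 chimeras alone (5.10%) and 1 of 1 with other miRNAs alone (3.93%). Without a library it was 5 to 6, of 8 to 13 tested (21.0% to 34.1%). For knockout enrichment it was 0, against 1 with library sizes alone, 3 with no filter and 2 with knockout libraries 2 and 3 as 1 sample, and 0 to 2 without a library. Filters, left-out or joined libraries and subsets of reads change which genes are tested. For other changes the cause was not tested. No member was testable, and no value was given, with miR-181 chimeras alone (Ago2 IP genotypes, knockout enrichment), other miRNAs alone (enriched genotypes) or identical reads counted once (knockout enrichment). Between genotypes, same-numbered libraries had correlations of -0.11 to 0.0030. Between the Ago2 IP and enriched libraries they were 0.11, -0.00088 and 0.039 in the wild type and 0.092, 0.042 and 0.090 in the knockout. Apart from wild-type library 2, each of these exceeded the largest with an unlike number, and pairing there was not tested further. The replicate block changed no other count of ribosomal protein genes. Over all genes it gave 137, 80, 1109 and 155 calls, against 157, 90, 999 and 160. Such calls moved by over 1.5 times with DESeq2 in the Ago2 IP (51) and enriched genotypes (46) and wild-type enrichment (573). With no filter they were 287 of 11862 tested in the enriched genotypes and 264 of 10040 in knockout enrichment. With other miRNAs alone they were 23 of 1333 in the Ago2 IP and 1 of 4 in the enriched genotypes. They were 9 of 229 in wild-type and 8 of 545 in knockout enrichment. With miR-181 chimeras alone they were 0 of 63, 45 of 1955, 109 of 2136 and 2 of 13 in the same order. In the enriched genotypes they were 37 of 319 tested without wild-type library 2 and 57 of 3367 without knockout library 1. The share of reads on ribosomal protein genes in the wild-type Ago2 IP was 0.195% with identical reads counted once, 0.176% without small-RNA spans, 0.256% of protein-coding reads and 0.189% without the leading Rps12 site. These were 0.241%, 0.234%, 0.350% and 0.245% in the knockout Ago2 IP, and, for the last 3, 0.187%, 0.323% and 0.227% in the wild-type enriched group. The knockout Ago2 IP mean was the higher under each. The miR-181-5p share in the wild-type Ago2 IP was 28.9%, 29.0% and 29.6% with identical reads once, without small-RNA spans and without the leading Rps12 site, the last chosen after seeing the data. Values that changed sign were all uncalled with the main settings. Rpl37 in the Ago2 IP genotypes was -0.19 with other miRNAs alone and -0.10 to 0.37 without a library, below 0 without wild-type 2 or 3 or knockout 3, and in the enriched genotypes 0.16 with library sizes alone, 0.0096 without small-RNA spans and 0.016 on either strand. Rps12 in the enriched genotypes was -0.14 with miR-181 chimeras alone. Rps12 in wild-type enrichment was 0.056 with no filter and 0.089 with identical reads once. It was 2.49 with miR-181 chimeras alone and 1.80 with other miRNAs alone (both called). In knockout enrichment it was 0.82 with other miRNAs alone and -0.51 to 0.11 without a library, above 0 without knockout enriched library 3. Exonic positions alone were not run.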
